A study of Mus musculus with 12 samples.

Results

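The 10 genes followed here mark neutrophils and were measured across mouse ovarian cancer ascites: S100a8, Lcn2, Ltf, Camp, Elane, Mpo, Csf3r, Trem1, Mmp9 and Fpr2. They were taken by symbol from a NanoString immune panel, and all 10 were present among the 750 genes of the deposited table. The choice was made with earlier results of these data known. The design text states a panel of 770 genes. NanoString counts single mRNA molecules with barcoded probes, without amplification.

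Each sample was RNA from 2000000 cells recovered from the peritoneal cavity 21 days after 5000000 tumour cells, called KMF in the design text, had been injected there. FAK, focal adhesion kinase, is a cytoplasmic tyrosine kinase of integrin signalling. The 12 samples form 4 groups of 3. Tumour genotype KTFAKKD without treatment gave replicates 3, 4 and 5, and genotype KTFAKWT without treatment gave replicates 1, 2 and 3. KTFAKWT tumours with the FAK inhibitor VS4716 (FAKi), gavaged at 100 mg/kg, gave replicates 4, 5 and 6, and KTFAKWT tumours with vehicle gave replicates 3, 4 and 9. The labels do not spell out KD. The titles of the vehicle samples say KTFAKWT while their genotype field says KTFAKKD, and the titles were followed. The genotypes belong to the injected tumour cells as far as the labels go, so the host genotype, strain, age and number of mice per sample are not known here. The labels do not say that replicates are separate mice, and the p-values measure only the spread between these samples.

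Neutrophils pack their killing machinery into granules that are made in sequence as the cell matures in the bone marrow. Azurophil granules come first and hold neutrophil elastase (Elane) and myeloperoxidase (Mpo). Specific granules follow with lactoferrin (Ltf), the cathelicidin antimicrobial peptide (Camp) and lipocalin 2 (Lcn2), and gelatinase granules with matrix metalloproteinase 9 (Mmp9) come later. Transcripts of azurophil proteins are therefore a property of immature granulocyte precursors and are largely lost in mature cells. S100a8 encodes one subunit of calprotectin, the abundant calcium-binding protein of the neutrophil cytosol. At the surface, Csf3r is the receptor for granulocyte colony-stimulating factor, Fpr2 a formyl peptide receptor that guides chemotaxis, and Trem1 a receptor that amplifies inflammatory signalling. Several of these genes are not restricted to neutrophils: macrophages also express Fpr2, Trem1 and Mmp9, and epithelial cells can make Lcn2. In bulk RNA, fewer cells of a type and less RNA per cell cannot be told apart.

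Camp and Trem1 carried the changes that passed under every scaling tried, while Elane and Mpo carried the largest spread between replicates. The 250 bases before the start used for each of these 4 genes are therefore shown. They are from RefSeq promoters of GRCm38.p6, written 5′ to 3′ on the gene's strand, with the PU.1 core GAGGAA, on either strand, in capitals. PU.1 and C/EBP factors are master regulators of granulocyte genes. The Camp stretch is chr9:109849457-109849706 on the minus strand, Trem1 is chr17:48232489-48232738, Elane is chr10:79886062-79886311 and Mpo is chr11:87793534-87793783, these 3 on the plus strand. For Trem1 the start used lies past the annotated gene start, 48232713, so the last printed bases fall within the gene.
Camp: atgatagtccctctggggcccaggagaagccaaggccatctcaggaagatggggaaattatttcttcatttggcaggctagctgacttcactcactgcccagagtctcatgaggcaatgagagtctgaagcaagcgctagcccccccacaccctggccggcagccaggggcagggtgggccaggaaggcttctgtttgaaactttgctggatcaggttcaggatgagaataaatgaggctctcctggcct
Trem1: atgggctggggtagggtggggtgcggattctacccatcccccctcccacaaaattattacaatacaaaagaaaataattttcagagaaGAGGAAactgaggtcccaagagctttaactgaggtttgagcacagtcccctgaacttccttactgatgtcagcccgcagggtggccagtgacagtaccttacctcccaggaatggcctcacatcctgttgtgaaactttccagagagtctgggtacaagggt
Elane: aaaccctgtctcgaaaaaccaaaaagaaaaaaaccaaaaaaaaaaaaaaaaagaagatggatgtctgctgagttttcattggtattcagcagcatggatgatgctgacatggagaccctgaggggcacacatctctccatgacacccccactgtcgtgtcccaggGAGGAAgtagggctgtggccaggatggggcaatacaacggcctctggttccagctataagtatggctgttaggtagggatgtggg
Mpo: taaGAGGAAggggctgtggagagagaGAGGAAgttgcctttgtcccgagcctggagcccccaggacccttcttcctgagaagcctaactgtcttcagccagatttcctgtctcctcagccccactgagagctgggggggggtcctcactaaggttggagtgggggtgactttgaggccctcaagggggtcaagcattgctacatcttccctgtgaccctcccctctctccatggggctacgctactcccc
The Camp stretch has no capitals, Trem1 and Elane hold 1 GAGGAA each, and Mpo holds 2. The promoter table matched 9 of the 10 genes, all but Mmp9. Over the 300-base window that adds 50 bases after the start, GAGGAA occurred in 8 of the 9, against 28.3% of 32841 promoters in the table. The C/EBP pattern TTGCNNAA, also sought on both strands, occurred in 2 of the 9, Lcn2 and Ltf, against 10.8% of promoters. A match describes letters in this window and shows no binding.

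The deposited values are log2 of a whole count times 1 factor per sample, and both could be recovered. Total recovered counts lay between 588778 and 760152 per sample. The factors were 1.29 to 1.66 in KTFAKKD, against 0.659 to 0.825 in untreated KTFAKWT, and 1.13 to 1.25 with FAKi, against 0.719 to 0.896 with vehicle. The deposited scale therefore carries an upward shift of the whole panel: the median log2 fold change over the 750 genes was 0.95 for KTFAKKD minus KTFAKWT, 0.54 for FAKi minus vehicle and 0.06 for vehicle minus untreated KTFAKWT. Each comparison is accordingly given on the deposited scale and, after each sample was shifted to a common median, relative to the panel. Whether the shift reflects RNA in the cells or the choice of scaling was not tested.

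Of the 10 genes, 4 rose (Camp, Ltf, Csf3r and Fpr2) and 1 fell (Trem1) in KTFAKKD relative to untreated KTFAKWT ascites on the deposited scale, where 74.5% of the panel passed the test, 65.1% higher and 9.47% lower. With FAKi, 2 rose (Camp and Mmp9) and 1 fell (Trem1) relative to vehicle, where 59.7% of the panel passed, 49.2% higher and 10.5% lower. The shares of the 10 that passed and that rose lay below those of the panel in both comparisons, and the share that fell, 1 of 10, was near that of the panel. The median log2 fold change of the 10 was 1.16 in KTFAKKD and 0.78 with FAKi. Relative to the panel the medians were 0.11 in KTFAKKD and 0.03 with FAKi, and the same pair passed in both comparisons: Camp rose and Trem1 fell. On that scale 58.1% of the panel passed for KTFAKKD (23.6% higher, 34.5% lower) and 46.5% for FAKi (17.7% higher, 28.8% lower). A gene passed at an adjusted p of 0.05 by limma's moderated test with Benjamini-Hochberg adjustment over the 750 genes. The KTFAKKD and FAKi comparisons share no samples, but 1 fit over all 12 samples gave both the same estimate of spread.

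**Figure D1:**
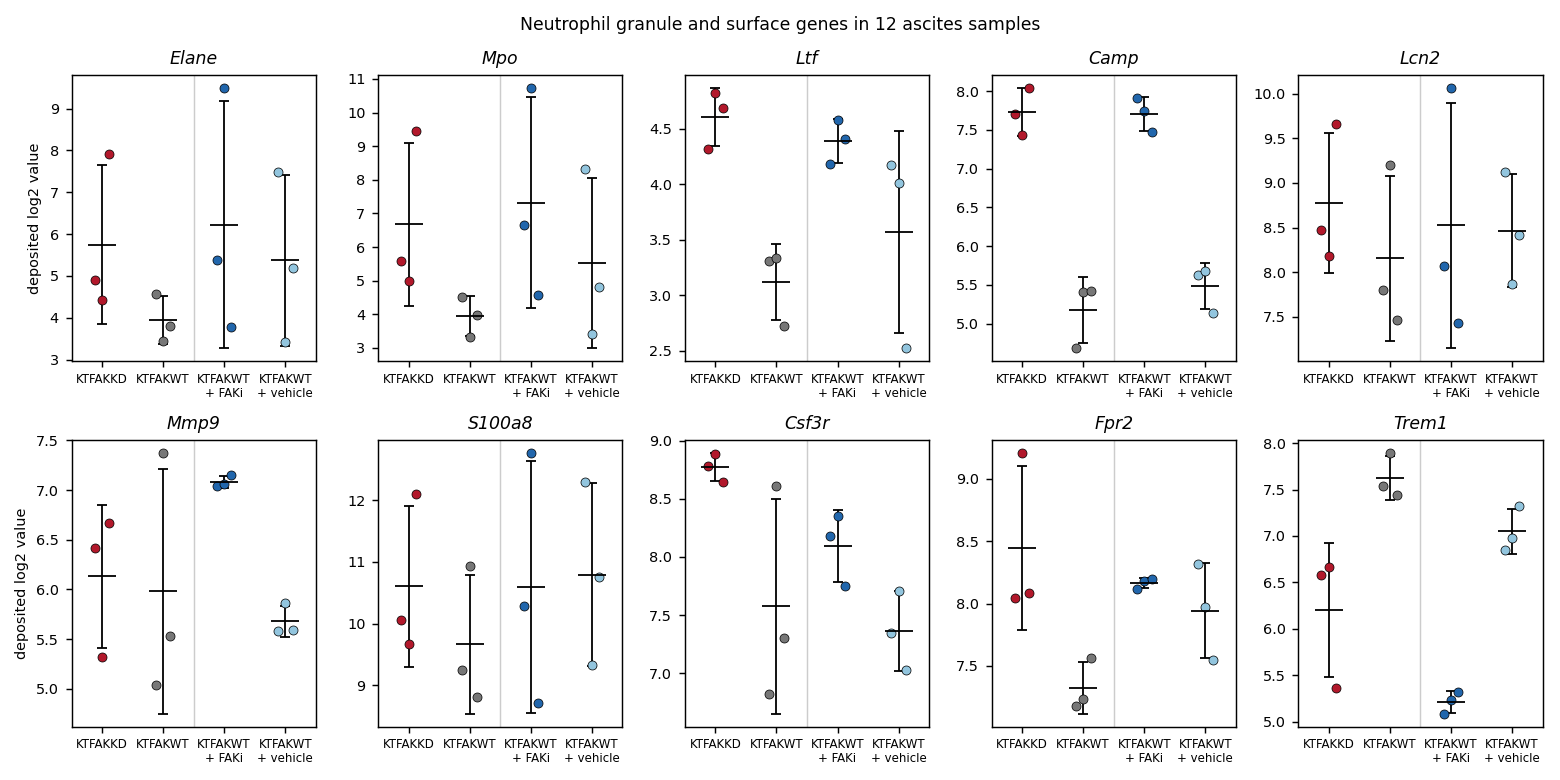
Deposited log2 value of each of the 10 genes in every sample, by group; short lines are group means. Camp sits at 7.43 to 8.05 in the 3 KTFAKKD samples, above 4.68 to 5.42 in the 3 untreated KTFAKWT samples, and Elane and Mpo have 1 sample far above the others in 3 of the 4 groups.

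**Figure D2:**
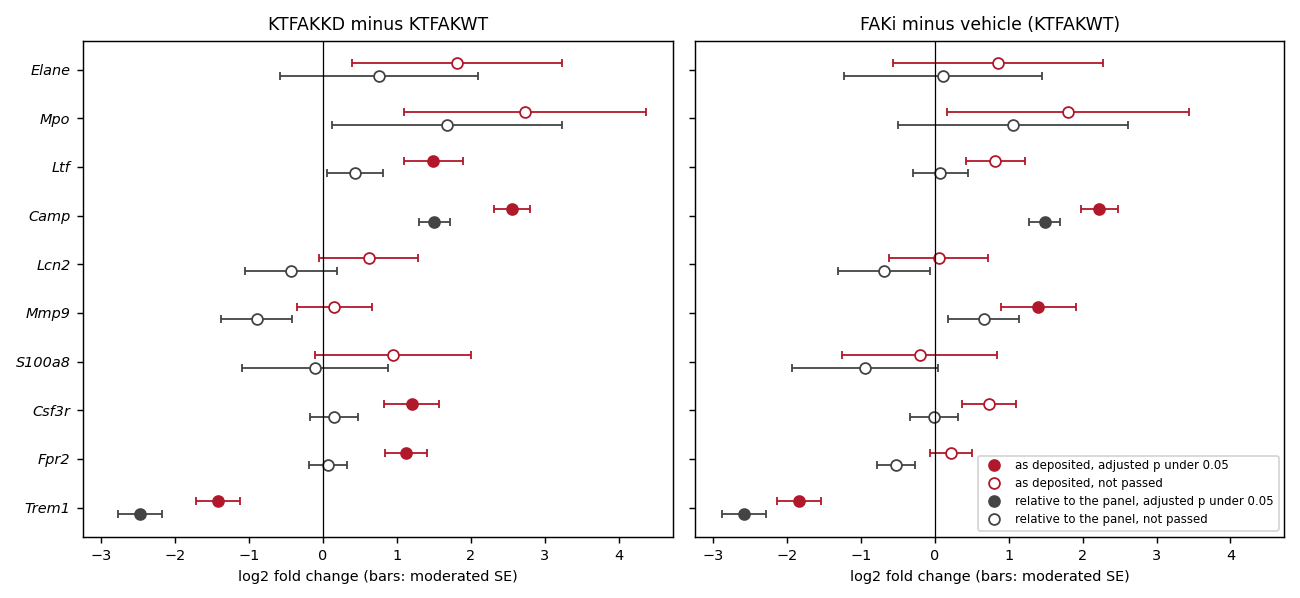
Log2 fold change of each gene with its standard error, for KTFAKKD minus untreated KTFAKWT and FAKi minus vehicle, on the deposited scale and relative to the panel. Camp stays right of 0 and Trem1 left of 0 on both scales, while Csf3r and Fpr2 in KTFAKKD move to 0.14 and 0.07 relative to the panel.

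Among the specific granule genes, Camp separated the groups completely. Its recovered counts were 147, 104 and 205 in KTFAKKD, against 39, 55 and 52 in untreated KTFAKWT, and 212, 188 and 143 with FAKi, against 66, 57 and 49 with vehicle. All 6 KTFAKKD and FAKi samples lay above the other 6 even before any scaling. On the deposited log2 scale the means were 7.73 ± 0.31 in KTFAKKD and 5.17 ± 0.42 in untreated KTFAKWT, and 7.71 ± 0.22 with FAKi and 5.48 ± 0.30 with vehicle (SD, n = 3 each). Camp was thus 5.88-fold higher in KTFAKKD (log2 2.56 ± 0.24, SE, adjusted p = 3.32e-06, limma) and 4.69-fold higher with FAKi (2.23 ± 0.24, adjusted p = 1.92e-05). With samples at a common panel median, Camp was still higher, by 1.50 ± 0.21 in KTFAKKD (adjusted p = 5.97e-05) and 1.49 ± 0.21 with FAKi (adjusted p = 1.07e-04). The test of the difference between the 2 changes gave 0.33 ± 0.35 (adjusted p = 0.530).

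The B-cell markers changed in the same direction as Camp, as did most T-cell, macrophage and mast cell markers listed on the deposited scale. All 13 B-cell markers measured rose in KTFAKKD, with a median of 2.26, where 65.1% of the panel rose. With FAKi 12 of 13 rose, with a median of 1.92, where 49.2% of the panel rose. At a common panel median 12 rose in KTFAKKD, and 7 rose and 1 fell with FAKi, against 23.6% and 17.7% of the panel higher. Cd37, a tetraspanin of B cells, changed by 2.29 ± 0.17 in KTFAKKD and 1.92 ± 0.17 with FAKi. Their summed recovered counts were 3606 to 7738 in KTFAKKD, against 2256 to 2467 in untreated KTFAKWT, and 5122 to 7404 with FAKi, against 2071 to 3105 with vehicle. The lowest count of a B-cell marker was 8, for Cd79a in untreated KTFAKWT. A recovered count could not be 0 by construction. Their part in the Camp result was not tested.

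Ltf, which encodes an iron-binding protein, gave few counts. They were 14, 17 and 20 counts in KTFAKKD, against 15, 13 and 8 in untreated KTFAKWT, and 16, 21 and 17 with FAKi, against 24, 18 and 8 with vehicle. The raw counts overlapped in both comparisons, the deposited values in neither, and the values relative to the panel overlapped in both. On the deposited scale Ltf rose in KTFAKKD by 1.49 ± 0.40 (adjusted p = 0.00540, limma), and its FAKi value was 0.82 ± 0.40 (adjusted p = 0.0970), which passed without vehicle replicate 3 (1.12, adjusted p = 0.0413) and with other control groups. Neither passed relative to the panel, at 0.44 ± 0.38 in KTFAKKD and 0.08 ± 0.38 with FAKi.

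Lcn2, which sequesters bacterial siderophores, varied within groups. Its counts were 249, 175 and 629 in KTFAKKD, against 338, 758 and 214 in untreated KTFAKWT, and 236, 943 and 139 with FAKi, against 740, 260 and 476 with vehicle. In every group 1 sample stood above the others, and the groups overlapped. Its log2 changes were 0.62 ± 0.67 in KTFAKKD and 0.06 ± 0.67 with FAKi, and neither passed.

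The azurophil pair, Elane and Mpo, ranged over more of the scale than almost any gene of the panel. Elane gave 21, 13 and 187 counts in KTFAKKD, against 36, 14 and 17 in untreated KTFAKWT, and 37, 637 and 11 with FAKi, against 239, 12 and 51 with vehicle. Mpo gave 34, 19 and 539 counts in KTFAKKD, against 35, 13 and 19 in untreated KTFAKWT, and 89, 1509 and 19 with FAKi, against 430, 12 and 39 with vehicle. KTFAKKD replicate 5, FAKi replicate 5 and vehicle replicate 3 were the high samples for both genes, and no untreated KTFAKWT sample reached them. From the lowest to the highest of the 12 samples the deposited values spanned 170-fold for Mpo and 67.4-fold for Elane. The counts of Mpo over Elane kept to between 0.765 and 2.88 in all 12 samples.

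Neither gene passed in either comparison. The log2 change of Mpo was 2.73 ± 1.64 in KTFAKKD (adjusted p = 0.149, limma), where its deposited values did not overlap those of untreated KTFAKWT, and 1.80 ± 1.64 with FAKi (adjusted p = 0.362). That of Elane was 1.81 ± 1.42 in KTFAKKD (adjusted p = 0.258) and 0.85 ± 1.42 with FAKi (adjusted p = 0.626). Samples did not overlap between KTFAKKD and untreated KTFAKWT for 76.8% of the panel, and for 66.9% between FAKi and vehicle.

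S100a8 was high in the same samples. Its counts were 751, 488 and 3393 in KTFAKKD, against 919, 2520 and 546 in untreated KTFAKWT, and 1104, 6125 and 339 with FAKi, against 6676, 722 and 2407 with vehicle. The groups overlapped throughout. The log2 change was 0.94 ± 1.05 in KTFAKKD and -0.20 ± 1.05 with FAKi, and neither passed.

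The 3 high samples stood above the geometric mean of the other 2 of their group, from the deposited log2 values, by 17.8-fold (KTFAKKD replicate 5), 35.1-fold (FAKi replicate 5) and 18.6-fold (vehicle replicate 3) for Mpo. For S100a8 the same ratios were 4.70, 9.58 and 4.73, and for Lcn2 they were 2.53, 4.98 and 1.97. These samples also had the highest total count of their group, at 755282, 760152 and 757486. Untreated KTFAKWT replicate 2 differed from them: it was the highest of its group in S100a8, Lcn2, Mmp9 and Csf3r but the lowest in Elane and Mpo.

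The criterion for genes of this kind was chosen after their values were seen. In 5 of the 750 genes the highest sample lay at least 1 log2 unit above the next in all 3 of the KTFAKKD, FAKi and vehicle groups. They were Elane, Mpo, S100a8, Ctsg (cathepsin G, another azurophil protease) and CD209e (a C-type lectin), and the highest were always the same 3 samples. Ctsg gave 182, 123 and 428 counts in KTFAKKD, against 56, 70 and 174 in untreated KTFAKWT, and 108, 545 and 91 with FAKi, against 226, 13 and 20 with vehicle. In untreated KTFAKWT the highest Ctsg sample was replicate 3, whereas Elane and Mpo were highest in replicate 1. The cell source of Ctsg was not tested.

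**Figure D3:**
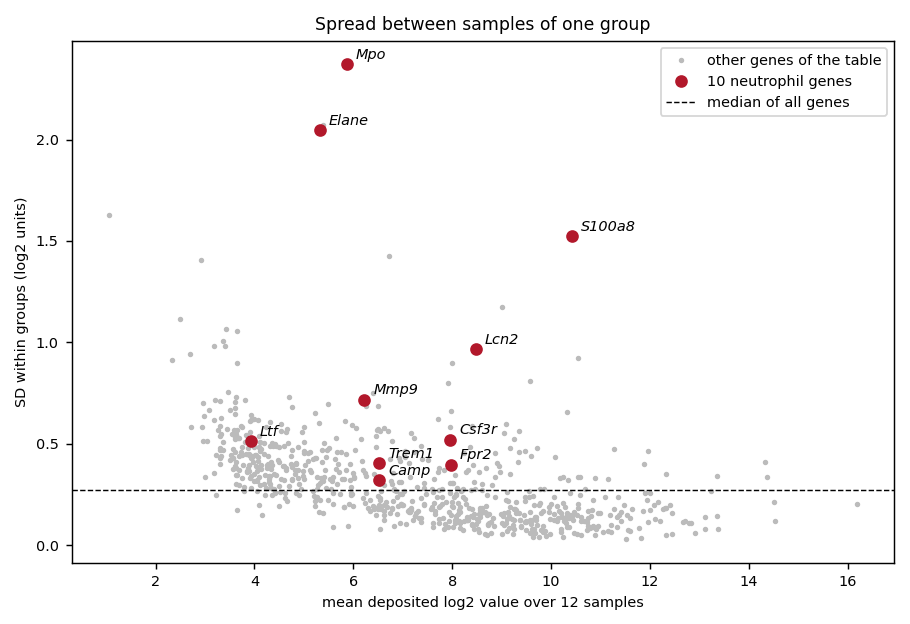
Within-group SD of the deposited log2 values of each of the 10 genes, pooled over the 4 groups, against its mean log2 value over the 12 samples; grey points are the other genes of the table and the dashed line is the median of all. Mpo (2.37), Elane (2.05) and S100a8 (1.52) rank 1, 3 and 5 of the 750 genes, and the panel median is 0.27.

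**Figure D4:**
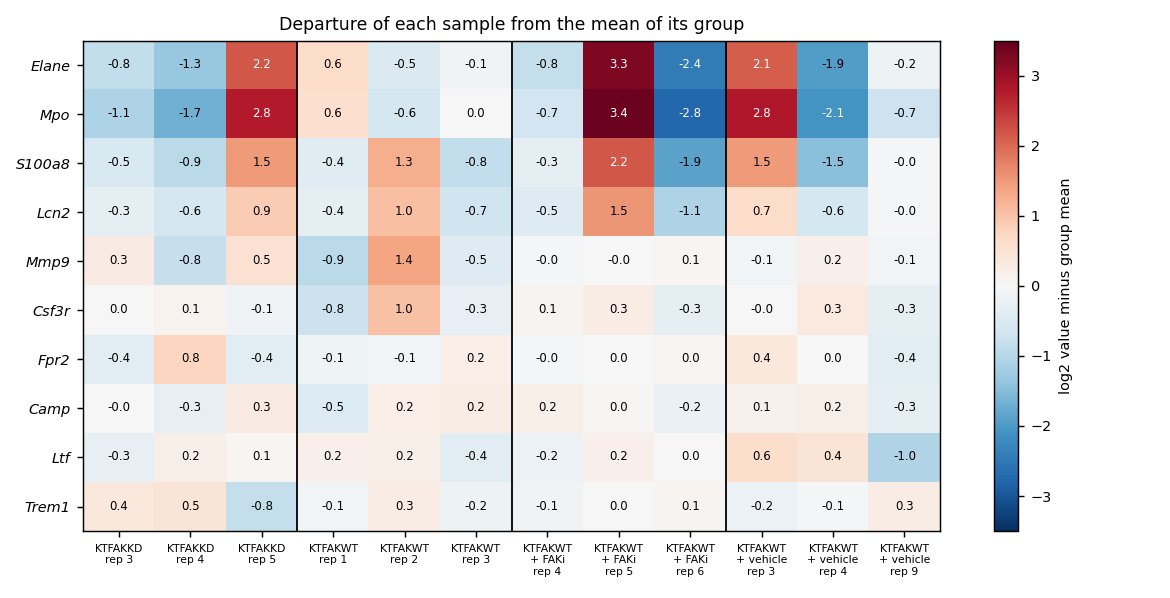
Departure of each sample from the mean of its group, in log2 units (colour and printed value), with the 10 genes down the side and the 12 samples along the bottom. Mpo, Elane, S100a8 and Lcn2 depart upward together in KTFAKKD replicate 5, FAKi replicate 5 and vehicle replicate 3.

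As a description of all 10, the pooled within-group SD was 2.37 for Mpo, 2.05 for Elane, 1.52 for S100a8, 0.97 for Lcn2 and 0.72 for Mmp9, ranks 1, 3, 5, 15 and 28 of 750. Csf3r (0.52), Ltf (0.51), Trem1 (0.40), Fpr2 (0.40) and Camp (0.32) followed, against a panel median of 0.27.

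Mmp9, a gelatinase that degrades matrix, was even across replicates with FAKi and with vehicle, and uneven in the untreated groups. Its counts were 60, 24 and 79 in KTFAKKD, against 50, 214 and 56 in untreated KTFAKWT, and 116, 117 and 114 with FAKi, against 64, 65 and 67 with vehicle. All FAKi samples lay above all vehicle samples, also relative to the panel, where 54.5% of the panel did not overlap. Mmp9 rose with FAKi by 1.40 ± 0.51 (2.64-fold, adjusted p = 0.0318, limma), and its KTFAKKD value was 0.15 ± 0.51 (adjusted p = 0.797). The FAKi call was lost without any 1 of the 6 samples (adjusted p from 0.0513 to 0.0770) and relative to the panel (0.66 ± 0.48, adjusted p = 0.289). These SEs pool the spread of all 4 groups. The SD was 0.06 with FAKi and 0.16 with vehicle, against 1.23 in untreated KTFAKWT and 0.72 in KTFAKKD. Of the 16 alternatives for FAKi, Mmp9 passed in 6, with limma's adjusted p from 1.29e-04 to 0.350 over all 16. Without untreated KTFAKWT replicate 2 the KTFAKKD value was 0.85 and passed (adjusted p = 0.0454). The test of the difference between the 2 changes gave -1.25 ± 0.72 (adjusted p = 0.224).

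Trem1 was the 1 surface gene, and the 1 gene of the 10, that fell. Its counts were 67, 61 and 32 in KTFAKKD, against 281, 307 and 211 in untreated KTFAKWT, and 30, 33 and 32 with FAKi, against 154, 141 and 222 with vehicle. The groups did not overlap in counts or in deposited values. Mean log2 values were 6.20 ± 0.72 in KTFAKKD and 7.62 ± 0.24 in untreated KTFAKWT, and 5.21 ± 0.11 with FAKi and 7.05 ± 0.24 with vehicle (SD, n = 3 each). Trem1 fell by 1.42 on the log2 scale in KTFAKKD (SE 0.30, adjusted p = 0.00116, limma) and by 1.84 with FAKi (SE 0.30, adjusted p = 2.42e-04). At a common panel median Trem1 changed by -2.47 ± 0.30 in KTFAKKD (adjusted p = 1.76e-05) and -2.58 ± 0.30 with FAKi (adjusted p = 2.27e-05).

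Trem1 fell along with all 8 epithelial and tumour markers in KTFAKKD, and along with most of them with FAKi. In KTFAKKD their median was -1.42, where 9.47% of the panel fell. With FAKi 6 fell and 2 rose, Msln and Cdh1, with a median of -0.70, where 10.5% of the panel fell. At a common panel median all 8 fell in KTFAKKD, and 6 fell and none rose with FAKi. The panel shares lower on that scale were 34.5% in KTFAKKD and 28.8% with FAKi. Msln, the ovarian tumour surface antigen mesothelin, changed by -1.06 ± 0.10 in KTFAKKD and by 0.85 ± 0.10 with FAKi. With FAKi Msln thus moved in the direction opposite to Trem1. The summed counts of the 8 were 1911 to 2292 in KTFAKKD, against 9420 to 12724 in untreated KTFAKWT, and 6600 to 7722 with FAKi, against 8029 to 11996 with vehicle. The lowest count among the 8 was 16, for Cdh1 in KTFAKKD, and a recovered count could not be 0 by construction. Their part in the Trem1 result was not tested.

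The ratio of Camp to Trem1 counts is free of the sample factor. It was 2.19, 1.70 and 6.41 in KTFAKKD, against 0.139, 0.179 and 0.246 in untreated KTFAKWT, and 7.07, 5.70 and 4.47 with FAKi, against 0.429, 0.404 and 0.221 with vehicle. The pair was chosen after its values were seen, because Camp and Trem1 each separate these samples in opposite directions, so the ratio adds no separation of its own.

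Csf3r, which sustains granulocyte production, gave 310, 285 and 311 counts in KTFAKKD, against 172, 503 and 191 in untreated KTFAKWT, and 256, 287 and 173 with FAKi, against 217, 234 and 182 with vehicle. The raw counts overlapped in both comparisons and the deposited values in neither. Csf3r rose in KTFAKKD by 1.20 ± 0.37 (adjusted p = 0.0112, limma), a call lost without untreated KTFAKWT replicate 1 (0.82, adjusted p = 0.0510), and its FAKi value was 0.73 ± 0.37 (adjusted p = 0.107). Its panel-relative values were 0.14 ± 0.32 in KTFAKKD and -0.01 ± 0.32 with FAKi, and neither passed.

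Fpr2 gave 185, 356 and 211 counts in KTFAKKD, against 220, 194 and 229 in untreated KTFAKWT, and 245, 255 and 236 with FAKi, against 424, 280 and 260 with vehicle. In raw counts vehicle lay above FAKi in all samples, whereas the deposited values overlapped. Fpr2 rose in KTFAKKD by 1.12 ± 0.28 on the deposited scale (adjusted p = 0.00404, limma), and its FAKi value was 0.22 ± 0.28 (adjusted p = 0.517). Its panel-relative value was 0.07 ± 0.26 in KTFAKKD and -0.52 ± 0.26 with FAKi (adjusted p = 0.124), with FAKi below vehicle in every sample on that scale, where 54.5% of the panel did not overlap.

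Between the control groups, none of the 10 genes passed for vehicle minus untreated KTFAKWT, where 0.0% of the panel passed by limma. At an unadjusted p under 0.05 there were 93 of 750 genes, 12.4%, and none of the 10 on the deposited scale. Relative to the panel there were 13.2%, and Trem1 was 1 of them. The vehicle values of Trem1 lay below all untreated values on both scales, with a deposited change of -0.57 ± 0.30, and samples did not overlap in 16.1% of the panel on the deposited scale and 19.3% relative to it. The vehicle values of Fpr2 lay above all untreated values relative to the panel and overlapped on the deposited scale. Its deposited change was 0.62 ± 0.28 and that of S100a8 was 1.13 ± 1.05.

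The difference between the KTFAKKD and FAKi changes was called by limma for none of the 10 on either scale, against 23.9% of the panel on the deposited scale and 26.0% relative to it. At an unadjusted p under 0.05 stood 37.9% of the panel and, of the 10, Fpr2 on the deposited scale (0.90 ± 0.40, limma's adjusted p = 0.125). Relative to the panel it was 36.7%, with Mmp9 of the 10 (-1.56 ± 0.68, limma's adjusted p = 0.118). Leaving out 1 sample brought a call for Csf3r (0.98, without untreated KTFAKWT replicate 2), Trem1 (0.83, without KTFAKKD replicate 5) or Ltf (1.19, without vehicle replicate 9).

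Of 30 other neutrophil genes listed, 21 were measured, and the rest are not analysed here. In KTFAKKD 13 rose and 2 fell, with a median of 1.18, and with FAKi 10 rose and 4 fell, with a median of 0.33. The shares that rose were near those of the panel, 65.1% in KTFAKKD and 49.2% with FAKi. After the panel shift was removed, 6 rose and 8 fell in KTFAKKD, where 23.6% of the panel was higher and 34.5% lower. With FAKi 2 rose and 11 fell, where 17.7% of the panel was higher and 28.8% lower. On that scale the share that fell with FAKi lay above that of the panel. The leading genes are shared with macrophages: Cybb, the catalytic subunit of the phagocyte oxidase, rose by 2.21 ± 0.12 in KTFAKKD and 1.11 ± 0.12 with FAKi, and C5ar1, the complement C5a receptor, by 1.46 ± 0.12 in KTFAKKD and 1.15 ± 0.12 with FAKi. Ncf4, another oxidase subunit, rose by 1.46 ± 0.12 in KTFAKKD and 0.73 ± 0.12 with FAKi, and Lyz2, lysozyme, by 2.12 ± 0.16 in KTFAKKD and 0.92 ± 0.16 with FAKi. Il1r2 (a decoy receptor for interleukin 1) and Mme (neprilysin) both passed as lower. Il1r2 fell by 1.07 in KTFAKKD and 1.40 with FAKi, and Mme fell by 0.87 in KTFAKKD and 1.17 with FAKi. Cxcr2, the chemokine receptor of mature neutrophils, had -0.52 ± 0.53 in KTFAKKD and -0.89 ± 0.53 with FAKi, and neither passed on the deposited scale. Cxcr2 fell relative to the panel, by 1.57 in KTFAKKD (adjusted p = 0.0140, limma) and 1.63 with FAKi (adjusted p = 0.0145). Other listed genes differed between the comparisons. Chil3 had a mean log2 value of 6.93 ± 1.82 with FAKi, against 10.39 ± 0.68 with vehicle (SD). In KTFAKKD its mean was 9.48 ± 0.30, against 9.21 ± 1.29 in untreated KTFAKWT. Fcgr4 had 9.92 ± 0.12 with FAKi, against 10.73 ± 0.12 with vehicle, and 11.63 ± 0.63 in KTFAKKD, against 10.04 ± 0.15 in untreated KTFAKWT. Il1r2, Mme, Cxcr2, Chil3 and Fcgr4 were picked after their values were seen, and most of the list rose in KTFAKKD on the deposited scale.

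Of 21 monocyte and macrophage markers, 17 rose and 1 fell in KTFAKKD, and 14 rose and 2 fell with FAKi, on the deposited scale. On that scale 65.1% and 49.2% of the panel rose. At a common panel median 12 rose and 4 fell in KTFAKKD, and 9 rose and 5 fell with FAKi, against 23.6% and 17.7% of the panel higher. Csf1r, the macrophage growth factor receptor, rose by 2.20 ± 0.12 in KTFAKKD and 1.86 ± 0.12 with FAKi. The summed counts of the 21 were 135728 to 167869 in KTFAKKD, against 72565 to 81411 in untreated KTFAKWT. They were 101758 to 130502 with FAKi, against 76169 to 114914 with vehicle. Lyz2, 1 of the 21, made up most of these sums. It gave 96851 to 123439 counts in KTFAKKD, against 44728 to 57575 in untreated KTFAKWT. With FAKi Lyz2 gave 67805 to 91666 counts, against 50324 to 81095 with vehicle. The 10 neutrophil genes together gave 1542 to 5606 counts in KTFAKKD, against 1543 to 4591 in untreated KTFAKWT, and 1223 to 10115 with FAKi, against 1801 to 9034 with vehicle. The sums of the 10 overlapped in both comparisons, and those of the macrophage markers overlapped between FAKi and vehicle. Ccr2 had 1 count in untreated KTFAKWT replicate 3 and in FAKi replicate 4, the lowest a recovered count could be. The part of macrophages in Csf3r, Fpr2, Mmp9 and Ltf was not tested. Of the other lists, 16 of 16 T-cell and NK markers rose in KTFAKKD and 11 with FAKi. Of 8 mast cell and eosinophil markers 6 rose in KTFAKKD and 7 with FAKi, and of 7 dendritic cell markers 6 rose in KTFAKKD and 2 with FAKi. On the deposited scale none of these 3 lists had a member that fell. At a common panel median 9 T-cell and NK markers rose in KTFAKKD, and 5 rose and 1 fell with FAKi. Of the mast cell and eosinophil markers 5 rose in each comparison, and of the dendritic cell markers 1 rose in KTFAKKD, and 1 rose and 1 fell with FAKi. CD209e is also a listed dendritic cell marker but was left out of the 7 because its symbol was spelt differently. On the deposited scale CD209e rose by 3.99 ± 1.43 in KTFAKKD (adjusted p = 0.0250, limma). It did not pass with FAKi (0.97 ± 1.43), nor in either comparison relative to the panel.

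All 21 genes listed for neutrophil recruitment and growth were measured. In KTFAKKD 13 rose and 2 fell, with a median of 0.86, and with FAKi 8 rose and 3 fell, with a median of 0.22. The panel shares that rose were 65.1% in KTFAKKD and 49.2% with FAKi, so the list did not stand above the panel. In KTFAKKD the interleukin Il1a rose by 2.92 ± 0.31, the neutrophil chemoattractant Cxcl2 by 2.47 ± 0.34 and the receptor subunit Csf2rb by 0.95 ± 0.12. With FAKi the chemokine Ccl3 rose by 2.44 ± 0.34, the retention receptor Cxcr4 by 2.93 ± 0.30 and its ligand Cxcl12 by 1.52 ± 0.21. At a common panel median 6 rose and 5 fell in KTFAKKD, and 4 rose and 5 fell with FAKi. Csf3, the ligand of Csf3r, had 0.02 ± 0.32 in KTFAKKD and 0.11 ± 0.32 with FAKi on the deposited scale, and neither passed. Its counts were low, at 7 to 25. Relative to the panel, its mean was 3.38 ± 0.52 in KTFAKKD, against 4.42 ± 0.40 in untreated KTFAKWT. With FAKi that mean was 3.86 ± 0.42, against 4.49 ± 0.32 with vehicle. Csf3, Cxcl3 and Il6 were picked after their values were seen.

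**Figure D5:**
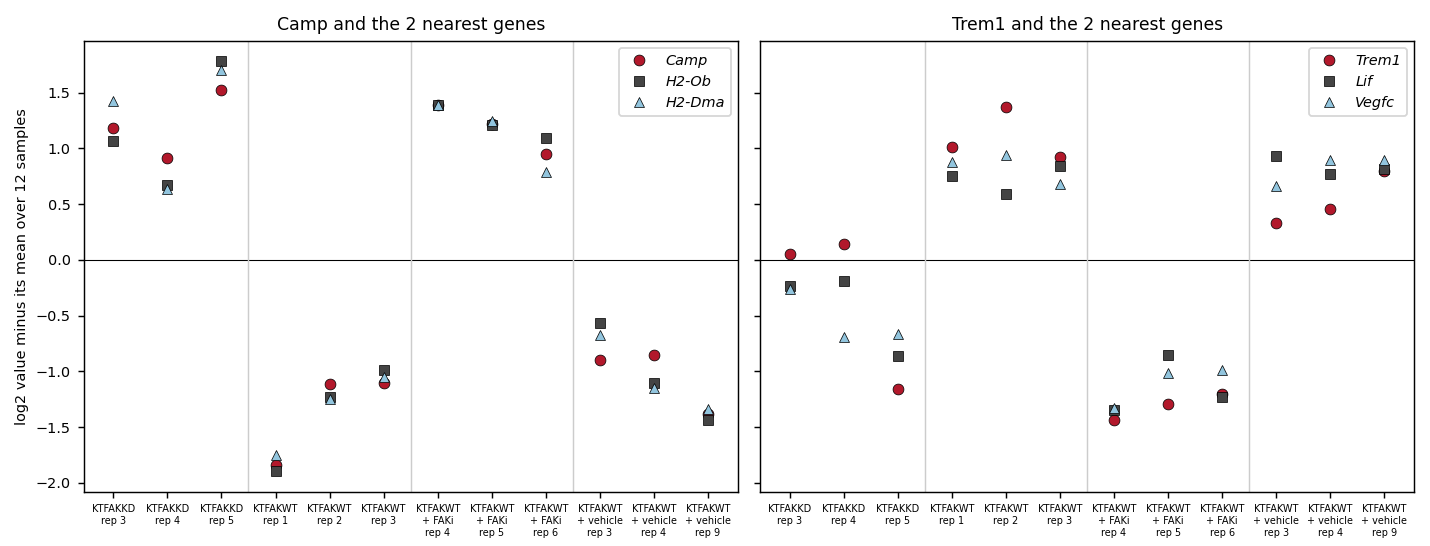
Mean-centred log2 values over the 12 samples by sample and group, for Camp with H2-Ob and H2-Dma (left) and Trem1 with Lif and Vegfc (right). Camp runs with H2-Ob (root mean square difference 0.17) and Trem1 with Lif (0.37).

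Likeness of pattern was measured by the root mean square difference of mean-centred log2 values over the 12 samples, which share each sample's factor. Camp lay nearest to H2-Ob and H2-Dma, MHC class II antigen-loading genes, at 0.17 each, whereas its nearest among the 10 was Ltf at 0.76. H2-Ob changed by 2.54 ± 0.31 in KTFAKKD and 2.26 ± 0.31 with FAKi. Trem1 lay nearest to Lif, an interleukin 6 family cytokine (0.37), and Vegfc, a lymphatic growth factor (0.38), and both fell in both comparisons. Fpr2 lay nearest to the Fc receptor gene Fcgr1 (0.16) and Csf3r to the chemokine receptor gene Ccr8 (0.28). Among the 10, S100a8 with Lcn2 and Elane with Mpo were nearest to each other, at 0.59 each, and no gene outside the 10 came nearer to any of these 4. Prg2, an eosinophil granule gene, was the nearest outside gene to S100a8 (0.96), Lcn2 (0.65) and Elane (1.31), and Mmp9 lay nearest to Il1rap (0.52).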

How the data were processed

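RNA of 12 ascites samples in 4 groups was counted on a NanoString immune panel. The deposited table holds log2 values; how background was treated and which reference genes were used is not given in the sources used here. In every sample all 750 values returned whole counts within 0.01 once 1 factor was divided out. The deposited log2 values were fitted in limma 3.58.1 (R 4.3.3) with 4 group means over all 12 samples, eBayes with trend, two-sided, Benjamini-Hochberg over 750 genes, threshold 0.05, and again with samples at a common panel median. Replicate samples differed beyond counting noise (chi-square per degree of freedom 8.35 to 59.8 over pairs), so none were merged. In 148 genes the mean count was under 20. The fit was checked on counts drawn with known changes.

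The genes and lists were chosen with earlier results of these data known, so no list has a test. The text names all 10 genes, the 4 genes of smallest p in the neutrophil and recruitment lists, up to 2 of other lists, and the nearest genes outside the 10, with exceptions stated. The 2 ratios of counts between probes are compared only across samples, and means carry the SD of 3 samples. Alternatives were scaling, filters on low values, variance model, samples in the fit, threshold, control group and leaving out each replicate. Promoters are RefSeq, GRCm38.p6.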

Additional observations from a re-analysis of the deposited data

How the results depend on the processing

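Camp (higher) and Trem1 (lower) passed in all 15 alternatives for KTFAKKD and all 16 for FAKi: Camp ranged over 1.43 to 2.70 and 1.48 to 2.54, Trem1 over -2.47 to -1.0 and -2.58 to -1.70. Under panel median, total and quantile scaling 1 gene of the 10 was called higher in each comparison, in place of 4 for KTFAKKD and 2 for FAKi. Leaving out 1 replicate gave 3 to 5 for KTFAKKD, 1 to 2 for FAKi and, for the difference between the changes, 0 to 1 (Csf3r without untreated KTFAKWT replicate 2, Trem1 without KTFAKKD replicate 5, Ltf without vehicle replicate 9). Without untreated KTFAKWT replicate 2, Mmp9 was called higher in KTFAKKD (0.85, adjusted p = 0.0454); without vehicle replicate 3, Ltf was called higher with FAKi (1.12, adjusted p = 0.0413). Csf3r passed for FAKi in a fit of the compared groups alone (adjusted p = 0.0184).

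Signs turned in values that had not passed on the deposited scale. In KTFAKKD, S100a8 was -0.11 (panel median) and -0.0728 (total), Lcn2 -0.43, -0.40 and, by quantile, -0.15, and Mmp9 -0.90, -0.86 and -1.07. With FAKi, Lcn2 was -0.68, -0.56 and -0.50, Fpr2 -0.52, -0.39 and -0.27 in the same order, and Csf3r -0.0097 by panel median. S100a8 was 0.36 against both control groups together and 0.93 against untreated KTFAKWT. Against untreated KTFAKWT, Fpr2 (0.84, adjusted p = 0.0221) and Ltf (1.27, adjusted p = 0.0149) were called higher, and Ltf also against both together (1.04, adjusted p = 0.0186). With that control and panel scaling together, chosen after seeing the data, S100a8 was 0.0725, Lcn2 -0.49, Csf3r -0.34 and Fpr2 -0.016. The Camp difference was -0.0728 (total) and -0.0473 (quantile). Leaving out 1 replicate gave -0.32 to 0.85 for Mmp9 in KTFAKKD; with FAKi, -1.29 to 0.73 for S100a8, -0.72 to 0.60 for Lcn2 and -0.79 to 2.08 for Elane; for vehicle minus untreated KTFAKWT, -0.0327 to 0.83 for Lcn2, -0.59 to 0.30 for Csf3r and -0.77 to 0.39 for Mmp9; and for the difference, -0.27 to 2.60 for Elane and -0.48 to 2.64 for Mpo. The cause was not tested. No paired analysis was possible because the groups compared share fewer than 2 replicate numbers. Counts of Ltf, at 8 to 24, limit its precision.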
